A study of Mus musculus with 24 samples.

Results

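The genes of DNA replication and of the cell cycle engine were followed through an endoderm differentiation of mouse embryonic stem cells with and without Setd3. They are 43 genes, picked by gene symbol from a table of 55401 genes: 27 of G1 and S phase (G1/S), 11 of G2 phase and mitosis (G2/M), and the 3 D-type cyclins with the kinases Cdk2 and Cdk4. The filter on low counts kept 41 of the 43. The replication genes Cdt1 and Gins2 were listed at 0 in all 24 libraries. Since Sox2, which embryonic stem cells express, was listed at 0 in all of them as well, a 0 in this table was not read as absence of the RNA.

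CJ9 cells were wild-type or belonged to 1 line in which Setd3, coding for a histidine methyltransferase of actin, had been knocked out with CRISPR-Cas9. Cells of both genotypes were maintained with LIF on inactivated mouse embryonic fibroblasts, taken off these feeders, and kept in serum-free endoderm differentiation medium, to which Activin A was added when they were passaged as single cells on day 2. Libraries of polyadenylated RNA, 3 per genotype and time point, were made at days 0, 2, 3 and 4, and the labels do not say whether the day 2 libraries were taken before that passage. Nor do they say whether the 3 libraries of a group came from separate cultures, so the p-values measure only the spread between these libraries, which may be technical, and the knock-out effect is that of 1 line.

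A chromosome is copied once per cell cycle. In G1 the origin recognition complex, Cdc6 and Cdt1 load the Mcm2 to Mcm7 helicase onto DNA, and at the start of S phase Cdc45 and the GINS proteins turn it into an active helicase, behind which the polymerases copy both strands. Cyclin E with Cdk2 and the E2F factors drive entry into S phase, while cyclin A, cyclin B with Cdk1, and the Polo and Aurora kinases drive G2 and mitosis. Mouse embryonic stem cells are known for short G1 phases and high cyclin E levels, and for little use of the cyclin D pathway.

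Libraries held 18531390 to 24244958 gene counts, and levels are given as CPM, counts scaled by TMM to a common library total. Changes are log2 fold changes from edgeR's quasi-likelihood test over 17144 genes, with Benjamini-Hochberg adjustment and 0.05 as threshold. The value after ± is the size of the change divided by the square root of its F statistic. Setd3 itself stood at 97.1 to 127 CPM in the wild-type libraries and at 29.1 to 48.8 CPM in the knock-out libraries. Definitive endoderm markers (Sox17, Foxa2, Cxcr4, Gata6 and Hhex) summed to 802 to 987 CPM in the wild-type and 49.6 to 111 CPM in the knock-out at day 4. Primitive streak markers (Eomes, Mixl1, Gsc and Wnt3) summed to 702 to 889 and 140 to 243 CPM there, and embryonic stem cell markers (Pou5f1, Nanog, Zfp42, Klf4 and Esrrb, with Sox2 at 0) to 188 to 308 and 706 to 750 CPM. Of the 5 tested stem cell markers, 4 were higher in the knock-out at day 4 and 1, Klf4, was lower (-1.79). Pou5f1 (474 CPM) and Nanog (249 CPM) had the highest knock-out means of the 5, and Zfp42 (7.48), Esrrb (1.95) and Klf4 (1.11) were low. The genotypes were apart in marker sums before day 4 too. Endoderm markers summed to 144 to 315 CPM in the wild-type and 8.05 to 9.60 CPM in the knock-out on day 3, and streak markers to 656 to 1047 and 48.4 to 60.4 CPM. The stem cell sum was lower in the knock-out on day 3, at 779 to 847 CPM in the wild-type and 690 to 701 CPM in the knock-out. On day 2 stem cell markers were at 376 to 419 and 589 to 635 CPM, and on day 0 streak markers at 37.6 to 58.3 and 5.82 to 7.11 CPM. From day 3 to day 4 the mean endoderm sum of the wild-type went from 221 to 881 CPM. Cell state markers therefore differed beside the member values of each day and of that step, and their part in the member values was not tested. In bulk RNA, fewer cells in a phase of the cycle and less RNA per cell cannot be told apart.

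The members were read first at their promoters, since the G1/S and G2/M classes are known to be controlled through different sequences there. E2F factors bind E2F sites, and the DREAM and MuvB complexes bind the cell cycle gene homology region (CHR), often together with CCAAT boxes bound by NF-Y. RefSeq promoter windows (GRCm38.p6, 250 bases before to 50 after a start) matched 33 of the 43 members. They were searched on both strands for E2F sites (TTTCCCGC, TTTCGCGC, TTTGCCGC and TTTGGCGC), the CHR (TTTGAA and TTCGAA) and CCAAT. Matches of the E2F letters on opposite strands can overlap each other, as in Mcm5 and Mcm6.

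An E2F site was found in 10 of the 23 windows of G1/S members (43.5%, with 21 genes behind the 23 windows), in 1 of 9 windows of G2/M members (11.1%) and in 2.27% of the 32841 windows in the table. The order was the other way for the CHR, with matches in 4 of 23 G1/S windows (17.4%), 8 of 9 G2/M windows (88.9%) and 19.2% of all windows. CCAAT was present in 73.9% of the G1/S windows, in all 9 G2/M windows and in 37.4% of all windows. Of the G2/M windows, 88.9% held both a CHR and a CCAAT box, against 7.52% of all windows. The letters describe these windows only, and a match is not evidence of binding.

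**Figure D1:**
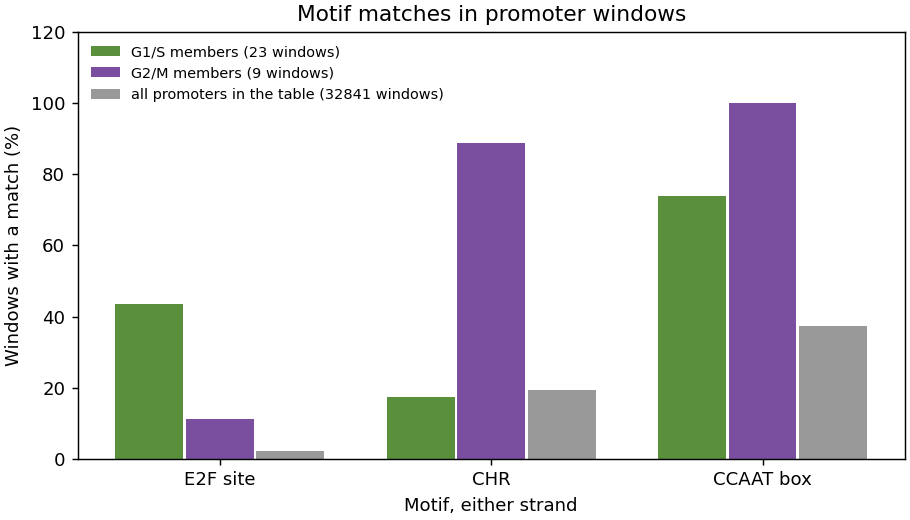
Share of RefSeq promoter windows (per cent) with at least 1 match to an E2F site, a CHR or a CCAAT box on either strand, for 23 windows of G1/S members, 9 windows of G2/M members and all 32841 windows. E2F sites were found in 43.5% of the G1/S windows and the CHR in 88.9% of the G2/M windows.

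The 250 bases before the start are printed for 4 G1/S members and 3 G2/M members, 5′ to 3′ on the gene's strand, with E2F, CHR and CCAAT matches in capitals. Mcm5, which was higher in the knock-out at every day (chr8:75109259-75109508 (plus strand)), and Mcm6 (chr1:128359706-128359955 (minus strand)) hold both E2F and CCAAT matches. Most G1/S windows do not, since only 10 of 23 held an E2F site. Orc1 (chr4:108579204-108579453 (plus strand)) is shown because it was the 1 member that rose from day 3 to day 4 in the wild-type, and Ccne1 (chr7:38107491-38107740 (minus strand)) because it had the highest positive change between genotypes at day 4 while its window held no match.
Mcm5: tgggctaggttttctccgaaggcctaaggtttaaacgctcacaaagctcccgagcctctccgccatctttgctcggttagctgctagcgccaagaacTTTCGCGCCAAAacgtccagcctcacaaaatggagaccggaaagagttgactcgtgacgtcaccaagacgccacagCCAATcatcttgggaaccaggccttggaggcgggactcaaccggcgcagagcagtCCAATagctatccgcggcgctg
Mcm6: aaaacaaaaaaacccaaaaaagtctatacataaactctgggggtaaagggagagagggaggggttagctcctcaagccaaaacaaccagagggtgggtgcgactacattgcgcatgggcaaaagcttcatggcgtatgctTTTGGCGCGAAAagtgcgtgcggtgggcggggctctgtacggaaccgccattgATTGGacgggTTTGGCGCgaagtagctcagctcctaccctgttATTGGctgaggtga
Orc1: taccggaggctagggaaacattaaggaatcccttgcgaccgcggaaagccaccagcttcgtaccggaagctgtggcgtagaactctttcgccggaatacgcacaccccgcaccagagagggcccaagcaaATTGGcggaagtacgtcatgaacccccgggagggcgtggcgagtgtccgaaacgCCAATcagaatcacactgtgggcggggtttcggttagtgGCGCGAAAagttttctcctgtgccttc
Ccne1: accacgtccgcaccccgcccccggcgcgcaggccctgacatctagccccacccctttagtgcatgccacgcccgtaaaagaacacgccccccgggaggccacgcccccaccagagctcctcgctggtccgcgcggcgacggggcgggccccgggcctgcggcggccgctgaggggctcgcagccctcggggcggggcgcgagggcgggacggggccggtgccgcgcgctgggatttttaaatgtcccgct
The G2/M members Cdk1 (chr10:69352913-69353162 (minus strand)), Cdc20 (chr4:118437344-118437593 (minus strand)) and Top2a (chr11:99024190-99024439 (minus strand)) show the CHR beside CCAAT boxes. Cdk1 was the 1 G2/M member whose window also held an E2F site.
Cdk1: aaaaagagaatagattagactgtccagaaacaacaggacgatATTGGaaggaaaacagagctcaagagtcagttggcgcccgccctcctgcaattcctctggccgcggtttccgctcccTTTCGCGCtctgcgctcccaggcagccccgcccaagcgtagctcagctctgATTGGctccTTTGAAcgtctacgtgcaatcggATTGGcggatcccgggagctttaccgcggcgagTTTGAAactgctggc
Cdc20: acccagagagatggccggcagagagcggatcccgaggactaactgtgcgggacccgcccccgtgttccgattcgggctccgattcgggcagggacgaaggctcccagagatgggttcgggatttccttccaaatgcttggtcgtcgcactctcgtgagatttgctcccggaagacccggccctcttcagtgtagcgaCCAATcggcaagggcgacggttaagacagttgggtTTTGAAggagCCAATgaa
Top2a: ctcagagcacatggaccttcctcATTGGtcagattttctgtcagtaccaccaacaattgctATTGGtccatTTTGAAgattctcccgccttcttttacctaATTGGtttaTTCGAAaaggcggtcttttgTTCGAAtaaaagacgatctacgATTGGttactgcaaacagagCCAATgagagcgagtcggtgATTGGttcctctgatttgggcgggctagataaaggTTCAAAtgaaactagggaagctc

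Levels were also divided by length, taken as all annotated exons of a gene merged. The length of the RNA that was made is not known, so the order of genes is rough. Per kilobase of exon, Pcna (168 CPM per kb), the mitotic activator Cdc20 (168) and Cdk4 (161) led in the wild-type at day 0, followed by Mcm5 (147). Cyclin E1 stood at 98.1 CPM per kb and cyclin E2, its paralogue, at 3.40, the lowest of the 41. Orc1, the largest subunit of the origin recognition complex, was next to it at 5.73 CPM per kb. In the wild-type at day 4 Ccne1 was at 30.5 and Ccne2 at 5.48 CPM per kb, and in the knock-out at 61.0 and 4.06.

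Averaged over members on the log2 CPM scale, the wild-type G1/S mean was nearly even up to day 3, and the G2/M mean rose from day 0 to day 2. Both dropped from day 3 to day 4. In the knock-out the G1/S mean dropped in that step too, but less, and both means ended above those of the wild-type. The mean over the 25 G1/S members was 7.08, 7.06, 7.05 and 6.72 in the wild-type at days 0, 2, 3 and 4, and 7.10, 7.20, 7.16 and 7.02 in the knock-out. Over the 11 G2/M members it was 7.85, 7.94, 7.96 and 7.71 in the wild-type and 8.02, 8.11, 8.04 and 8.01 in the knock-out. At day 4 the 3 libraries of each genotype did not overlap in either class.

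**Figure D2:**
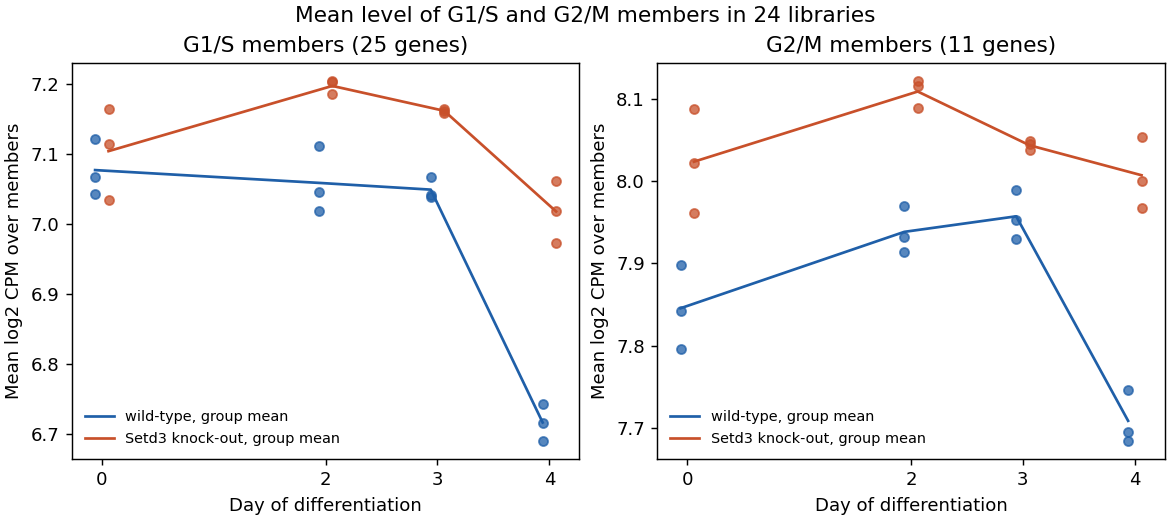
Mean log2 CPM over the 25 G1/S members (left) and the 11 G2/M members (right) in each of 24 libraries (points) by day, with lines through the group means. The vertical axes do not start at 0. From day 3 to day 4 the wild-type mean went from 7.05 to 6.72 for G1/S and from 7.96 to 7.71 for G2/M.

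The step from day 3 to day 4 of the wild-type, the last day in Activin A, was the step in which most members moved together. Of the 41 tested members 32 fell and 1, Orc1, rose, where 45.5% of all tested genes changed (23.1% fell and 22.4% rose). By class, 21 of 25 G1/S members, 8 of 11 G2/M members and 3 of the 5 D cyclins and G1 kinases fell, with median changes of -0.33, -0.25 and -0.19, beside -0.011 over all tested genes. The 8 members past the threshold in neither direction were Orc6, Cdc45, E2f1, Ccnb2, Ccnd2, Cdk4, Bub1 and Mki67. Without 1 library at a time, 30 of the 33 calls held in all 24 fits. Those lost at least once were Orc1 (adjusted p up to 0.131, lost without replicate 1 or 2 of day 3 or replicate 2 of day 4), Ccne2 (up to 0.137, lost without replicate 1 or 2 of day 3 or replicate 2 or 3 of day 4) and Mcm6 (0.0524 without replicate 3 of day 4).

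The same step in the knock-out moved fewer members, and also a smaller share of all tested genes. There 8 of 41 changed, and these fell (11.6% of all genes changed, 5.76% rising and 5.83% falling): Mcm2, Mcm10, Cdc6, Gins4, Pold1, Rrm2, Ccne1 and Ccna2. Only 5 of these calls held in every fit without 1 library, and 5 members were called without replicate 1 of the knock-out at day 3. Tested directly, the change from day 3 to day 4 differed between genotypes for 22 members, higher in the knock-out for 21 and lower for Orc1, where 23.8% of all genes differed (12.6% and 11.2%). These 22 were 13 higher and 1 lower of the G1/S members, 6 of the G2/M members, and Ccnd1 and Ccnd3, and 13 of the calls held without any 1 library. The comparisons share their day 3 and day 4 libraries, so the difference in steps and the genotype difference at day 4 are not separate evidence.

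**Figure D3:**
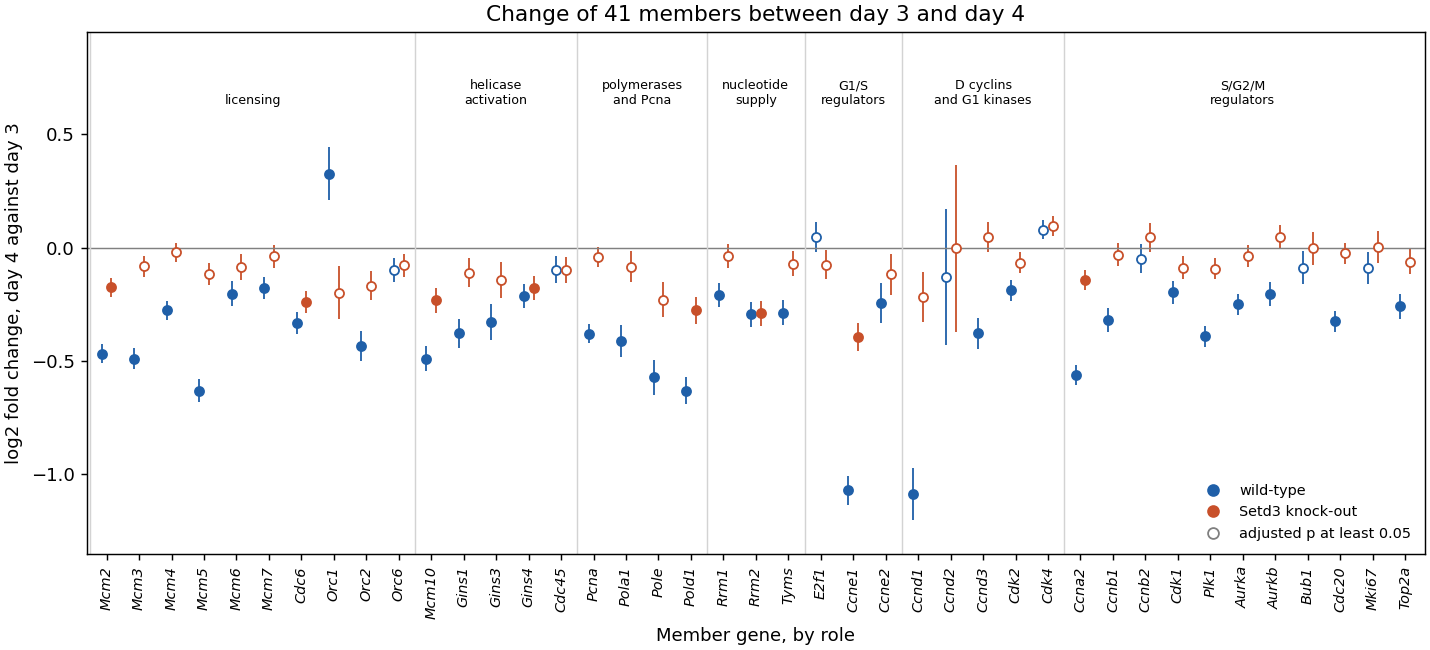
Log2 fold change from day 3 to day 4 of the 41 tested members, grouped by role, in the wild-type (blue) and the knock-out (orange). Bars are the change divided by the square root of F, and open points have an adjusted p of at least 0.05. In the wild-type 32 members fell, in the knock-out 8, and Ccne1 and Ccnd1 fell furthest in the wild-type.

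Among the licensing genes, which load the helicase, Mcm2 and Mcm5 changed most clearly in this step. Mcm5 in the wild-type stood at 621, 569 and 569 CPM on day 0, 518, 569 and 559 on day 2, 534, 527 and 565 on day 3 and 328, 349 and 372 on day 4. Mcm5 in the knock-out stood at 677, 724 and 689 CPM on day 0, 656, 619 and 661 on day 2, 668, 652 and 661 on day 3 and 618, 618 and 593 on day 4. The knock-out libraries lay above the wild-type libraries of the same day at every day, and the gap was widest at day 4, where no wild-type library passed 372 CPM. From day 3 to day 4 Mcm5 fell in the wild-type (-0.63 ± 0.05, adjusted p = 2.49e-10) and changed by -0.12 ± 0.05 in the knock-out (adjusted p = 0.131), a difference of 0.52 ± 0.07 (adjusted p = 5.38e-06).

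Mcm2, another subunit of the ring, had wild-type levels of 521, 476 and 490.1 CPM on day 0, 488, 514 and 496 on day 2, 460.4, 486 and 497 on day 3 and 338, 353 and 353 on day 4. Mcm2 in the knock-out was at 501, 544 and 537 CPM on day 0, 585, 566 and 587 on day 2, 569.9, 559 and 559.8 on day 3 and 502, 502 and 493 on day 4. The genotypes overlapped at day 0 and were apart at days 2, 3 and 4. Mcm2 fell in both genotypes from day 3 to day 4, by 0.47 in the wild-type (adjusted p = 2.27e-09) and by 0.17 in the knock-out (adjusted p = 0.00672), and these steps differed by 0.29 ± 0.06 (adjusted p = 0.000594).

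The other ring subunits fell in the wild-type step as well, Mcm3 by 0.49, Mcm4 by 0.28, Mcm6 by 0.20 and Mcm7 by 0.18. In the knock-out none of these 4 passed the threshold, with changes from -0.09 (Mcm6) to -0.02 (Mcm4). The loader Cdc6 fell in both genotypes (-0.33 and -0.24), and its difference in steps, 0.09 ± 0.07, did not pass the threshold. Orc1 in the wild-type was at 20.4, 21.1 and 18.3 CPM on day 0, 11.5, 12.8 and 10.9 on day 2, 8.49, 9.43 and 10.7 on day 3 and 11, 12.9 and 12 on day 4. Orc1 in the knock-out was at 16.3, 16.9 and 19.2 CPM on day 0, 13.9, 13.9 and 11.8 on day 2, 10.9, 11.9 and 12.6 on day 3 and 11, 11.1 and 8.76 on day 4. Its wild-type libraries were highest at day 0, and those of day 4 were above those of day 3 by 0.33 ± 0.12 (adjusted p = 0.026), while the knock-out changed by -0.20 ± 0.12. The difference in steps was -0.53 ± 0.17 (adjusted p = 0.0222), and it was lost in 4 fits without 1 library (adjusted p up to 0.0763). A noncoding gene on the opposite strand, Gm12743, overlaps 10.8% of the exon bases of Orc1, and no source used here says whether strand was used in counting.

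Of the genes that activate the helicase, Mcm10 and Gins1 had the lowest adjusted p in the wild-type step. Mcm10 in the wild-type was at 189, 185 and 175 CPM on day 0, 146, 165 and 142 on day 2, 155, 142 and 152 on day 3 and 106, 104 and 109 on day 4. Mcm10 in the knock-out was at 169, 189.6 and 182 CPM on day 0, 170.0, 173 and 174 on day 2, 171, 163 and 153 on day 3 and 138, 138 and 138 on day 4. All day 4 libraries were below all day 3 libraries in both genotypes, and at day 4 the knock-out stood above the wild-type without overlap. The fall was -0.49 ± 0.06 in the wild-type (adjusted p = 1.05e-07) and -0.23 ± 0.06 in the knock-out (adjusted p = 0.00684, and 0.0593 without replicate 1 of the knock-out at day 3).

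Gins1, a subunit of the GINS complex, was at 58, 55 and 52.7 CPM on day 0, 48.6, 52.4 and 50.2 on day 2, 50.5, 50.7 and 46.8 on day 3 and 36.9, 40.3 and 36.6 on day 4 in the wild-type. Gins1 in the knock-out was at 49.1, 52.5 and 57.3 CPM on day 0, 52.1, 51.5 and 51.2 on day 2, 50.4, 49.9 and 52.5 on day 3 and 46.9, 50.2 and 44.6 on day 4. Knock-out and wild-type overlapped at days 0, 2 and 3 and were apart at day 4 (0.32 ± 0.06, adjusted p = 0.000177). The wild-type fell by 0.38 from day 3 to day 4 (adjusted p = 2.86e-05) and the knock-out changed by -0.11 ± 0.06 (adjusted p = 0.291).

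Pcna, the sliding clamp of the polymerases, and Pold1, the catalytic subunit of polymerase delta, had lower wild-type levels at day 4 than at day 3. Pcna in the wild-type was at 422, 401 and 385 CPM on day 0, 447, 492 and 458 on day 2, 435, 415 and 427 on day 3 and 319.6, 336 and 326 on day 4. Pcna in the knock-out was at 404, 424 and 416 CPM on day 0, 514, 517 and 535 on day 2, 480.2, 476 and 486 on day 3 and 461, 485 and 456 on day 4. From day 2 on every knock-out library was above every wild-type library of its day, and in the knock-out the day 3 and day 4 libraries overlapped. The wild-type fell by 0.38 in the last step (adjusted p = 8.22e-08), the knock-out changed by -0.04 ± 0.04 (adjusted p = 0.592), and these steps differed by 0.34 ± 0.06 (adjusted p = 0.000165).

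Pold1 was at 89.1, 91.6 and 88.6 CPM on day 0, 127, 132 and 138 on day 2, 119.7, 129 and 125 on day 3 and 72.2, 81.8 and 86.9 on day 4 in the wild-type. Pold1 in the knock-out was at 86.6, 95.1 and 99.1 CPM on day 0, 134, 137 and 147 on day 2, 137, 130.1 and 129 on day 3 and 110.0, 106 and 111 on day 4. The libraries of both genotypes rose from day 0 to day 2, 0.56 ± 0.06 in the wild-type and 0.57 ± 0.06 in the knock-out, and in each the day 4 libraries lay below those of days 2 and 3. Pold1 fell in both at the last step, by 0.63 in the wild-type (adjusted p = 7.4e-09) and by 0.28 in the knock-out (adjusted p = 0.00328). Pole, of polymerase epsilon, and Pola1, of polymerase alpha, fell in the wild-type (-0.57 and -0.41) and stood at -0.23 and -0.08 in the knock-out, neither past the threshold.

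The genes of nucleotide supply behaved unevenly. Rrm2, the small subunit of ribonucleotide reductase, was at 353, 368 and 359 CPM on day 0, 355, 433 and 379.8 on day 2, 460.2, 426 and 437 on day 3 and 349, 388 and 342 on day 4 in the wild-type. Rrm2 in the knock-out was at 352, 352 and 346 CPM on day 0, 376, 384 and 384 on day 2, 397, 368 and 358 on day 3 and 307, 306 and 306 on day 4. It was 1 of the few members that were lower in the knock-out, at day 3 (-0.24 ± 0.06, adjusted p = 0.00154) and at day 4 (-0.23 ± 0.06, adjusted p = 0.00119), with no overlap at either day. From day 3 to day 4 it fell by 0.29 in the wild-type and by 0.29 in the knock-out.

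Tyms, thymidylate synthase, was at 106, 94.1 and 97.5 CPM on day 0, 102, 112 and 107 on day 2, 117, 107 and 107 on day 3 and 93.4, 86.8 and 90.6 on day 4 in the wild-type. Tyms in the knock-out was at 90.7, 92.1 and 88.9 CPM on day 0, 112, 113 and 124 on day 2, 108, 112 and 113 on day 3 and 101, 111 and 105 on day 4. The knock-out libraries were below the wild-type ones at day 0, just above them at day 2, among them at day 3 and above them again at day 4, and only day 4 passed the threshold (0.23 ± 0.06, adjusted p = 0.00112). Rrm1, the large subunit of ribonucleotide reductase, was higher in the knock-out at day 4 (0.23 ± 0.05, adjusted p = 0.000605).

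Of the regulators of S phase entry, cyclin E1 (Ccne1, chr7:38097984-38107534 on GRCm38) showed the highest positive change between genotypes of all members. Ccne1 in the wild-type was at 274, 256 and 253 CPM on day 0, 204, 218 and 212 on day 2, 153, 177 and 181 on day 3 and 74.5, 84.4 and 84.7 on day 4. Ccne1 in the knock-out was at 243, 279 and 268 CPM on day 0, 233, 224 and 249 on day 2, 213, 215 and 212 on day 3 and 163, 166 and 157 on day 4. Both genotypes overlapped at day 0, the wild-type declined at each step without overlap between successive days, and at day 4 the lowest knock-out library had 157 CPM and the highest wild-type library 84.7 CPM. The wild-type fell by 1.07 in the last step (adjusted p = 3.4e-12) and the knock-out by 0.39 (adjusted p = 0.000139), a difference of 0.68 ± 0.09 (adjusted p = 3.67e-06). At day 4 the knock-out was higher by 1.00 ± 0.06 (adjusted p = 3.74e-12).

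Cyclin E2 went the other way. Ccne2 in the wild-type was at 11.3, 11.9 and 12.5 CPM on day 0, 9.36, 9.75 and 9.07 on day 2, 22.9, 24.5 and 20.7 on day 3 and 20.7, 19 and 17.8 on day 4. Ccne2 in the knock-out was at 12.7, 11.6 and 12.7 CPM on day 0, 10.9, 11.3 and 10.5 on day 2, 15.1, 15.2 and 15.8 on day 3 and 13, 15.6 and 14 on day 4. Its wild-type libraries went from at most 9.75 CPM at day 2 to at least 20.7 CPM at day 3, whereas no knock-out library passed 15.8 CPM at any day. Ccne2 rose by 1.27 ± 0.09 in the wild-type from day 2 to day 3 (adjusted p = 9.1e-11) and by 0.49 ± 0.09 in the knock-out (adjusted p = 0.000222). The difference, -0.78 ± 0.13 (adjusted p = 0.000226), made Ccne2 the 1 member of 41 whose step from day 2 to day 3 differed between genotypes (10.9% of all genes did, 4.33% lower and 6.61% higher in the knock-out). Ints8 overlaps 17.4% of the exon bases of Ccne2 on the opposite strand. E2f1, a transcription factor of S phase entry, was higher in the knock-out at day 2 (0.30 ± 0.06), day 3 (0.32 ± 0.06) and day 4 (0.20 ± 0.06). Its part in the levels of the other members was not tested.

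**Figure D4:**
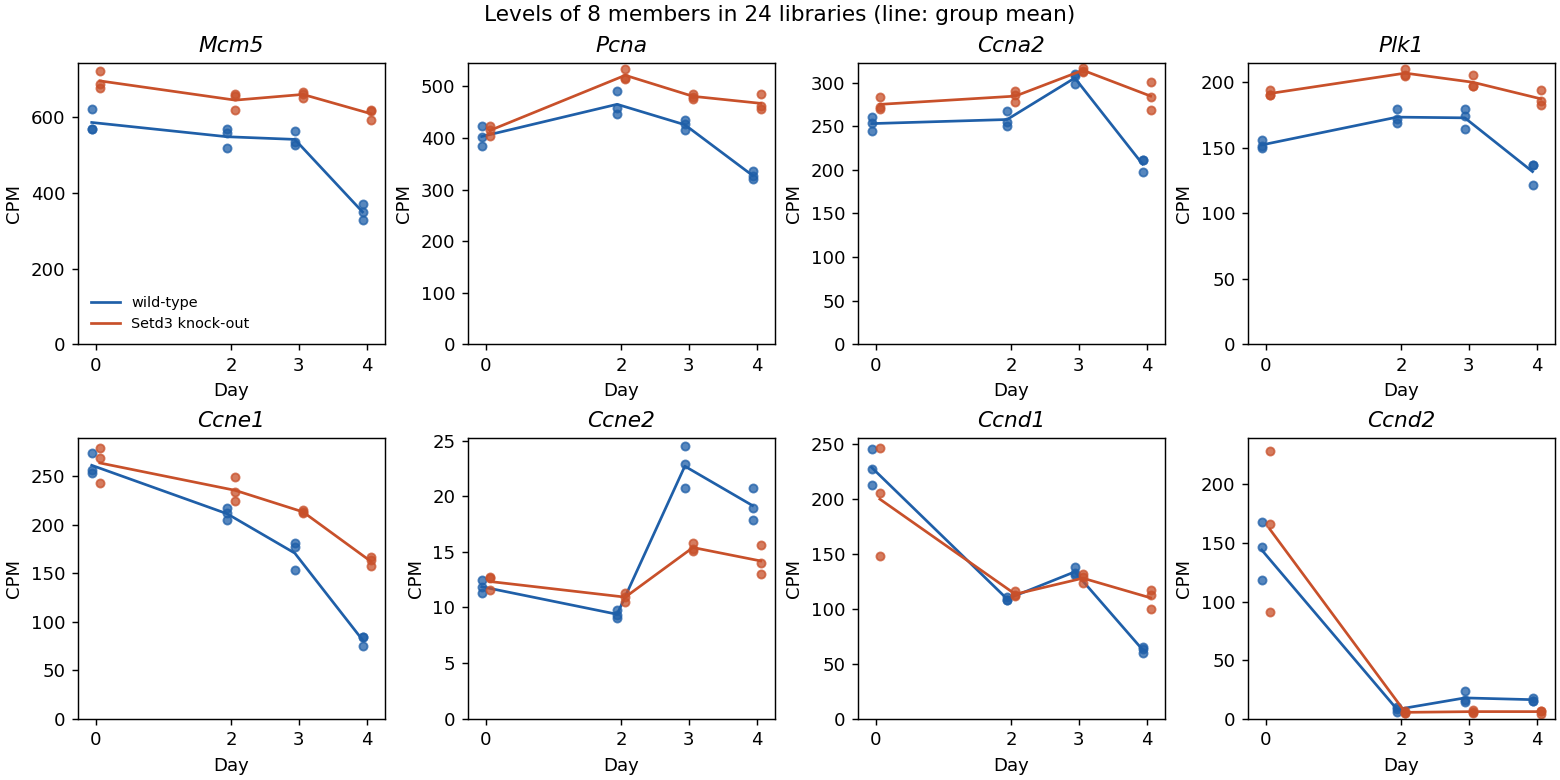
Levels (CPM) of 8 members in each library by day, with lines through the means of the wild-type (blue) and knock-out (orange) groups of 3 libraries. Ccne1 and Ccnd1 ended lower in the wild-type, Ccne2 and Ccnd2 ended lower in the knock-out, and both D cyclins were highest at day 0.

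The D-type cyclins, which with Cdk4 open the path from G1 to S, had the widest range of all members. Ccnd2 in the wild-type was at 118, 168 and 146 CPM on day 0, 9.88, 8.27 and 5.65 on day 2, 23.3, 15.7 and 14.4 on day 3 and 18.1, 15.4 and 15.3 on day 4. Ccnd2 in the knock-out was at 229, 166 and 90.7 CPM on day 0, 6.48, 4.89 and 4.94 on day 2, 7.28, 5.71 and 5.22 on day 3 and 6.85, 4.43 and 6.91 on day 4. It dropped after day 0 in both genotypes (-4.18 ± 0.31 and -4.89 ± 0.33), rose again in the wild-type at day 3 (1.16 ± 0.32, adjusted p = 0.00831), and was lower in the knock-out at day 3 (-1.55 ± 0.33, adjusted p = 0.00114) and day 4 (-1.42 ± 0.34, adjusted p = 0.00162). The rise at day 3 was lost without replicate 1 of the wild-type at day 3 (adjusted p = 0.057).

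The day 0 levels of Ccnd2 moved with markers of the fibroblast feeders. The 18 feeder markers summed to 1237, 2201 and 1860 CPM in wild-type replicates 1, 2 and 3 at day 0 and to 3212, 2283 and 1226 CPM in the knock-out, and Ccnd2 had the same order within each genotype, as had Ccnd1. The mean log2 CPM of the G2/M members had the opposite order in both genotypes, at 7.90, 7.80 and 7.84 in wild-type replicates 1, 2 and 3 and 7.96, 8.02 and 8.09 in those of the knock-out. At days 2 to 4 the sums lay between 54.7 and 222 CPM, with 0 to 4 of the 18 markers at 0 in a library. The part of feeder RNA in the day 0 levels, and in each step from day 0 to day 2, was not tested.

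Ccnd1, cyclin D1, was at 212, 245 and 227 CPM on day 0, 111, 108 and 108 on day 2, 130.5, 132 and 138 on day 3 and 59.6, 63.3 and 65.4 on day 4 in the wild-type. Ccnd1 in the knock-out was at 246, 205 and 148 CPM on day 0, 112, 116 and 111 on day 2, 131, 129 and 123 on day 3 and 112, 117 and 99.8 on day 4. Both genotypes were between 108 and 138 CPM at days 2 and 3, and at day 4 the wild-type libraries were far below those of the knock-out. The last step was -1.09 ± 0.11 in the wild-type (adjusted p = 1.7e-07) and -0.22 ± 0.11 in the knock-out (adjusted p = 0.233), a difference of 0.87 ± 0.16 (adjusted p = 0.000414). LTO1 overlaps 23.4% of the exon bases of Ccnd1 on the opposite strand.

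Ccnd3, cyclin D3, was at 159.9, 158 and 167 CPM on day 0, 53.3, 56.6 and 49.3 on day 2, 57.9, 58.1 and 59.2 on day 3 and 43.2, 42.7 and 48.8 on day 4 in the wild-type. Ccnd3 in the knock-out was at 149, 153 and 157 CPM on day 0, 60.6, 60.7 and 73 on day 2, 66, 67.9 and 70.1 on day 3 and 71, 67.7 and 71.8 on day 4. It was highest at day 0 in both, and the knock-out was above the wild-type from day 2 on without overlap (0.64 ± 0.07 at day 4, adjusted p = 1.19e-08). It fell by 0.38 in the wild-type at the last step (adjusted p = 4.76e-05) and changed by 0.05 ± 0.07 in the knock-out.

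The partner kinases differed between genotypes in opposite directions. Cdk4 in the wild-type was at 544, 516 and 505 CPM on day 0, 649.5, 683 and 638 on day 2, 722, 677 and 683 on day 3 and 748, 743 and 709.7 on day 4. Cdk4 in the knock-out was at 498, 473 and 467 CPM on day 0, 598, 582 and 634 on day 2, 580.2, 569.9 and 591 on day 3 and 606, 620.0 and 634 on day 4. Each knock-out library was below each wild-type library at every day, with differences of -0.12, -0.12, -0.26 ± 0.04 (adjusted p = 3.06e-05) and -0.24 ± 0.04 (adjusted p = 3.34e-05) at days 0, 2, 3 and 4. The calls at days 0 and 2 were lost with TMM factors computed without chromosome 8 and distal chromosome 12 and in 15 and 5 fits without 1 library (adjusted p up to 0.146 and 0.173). Tspan31 overlaps 19.7% of the exon bases of Cdk4 on the opposite strand.

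Cdk2, the kinase of cyclins E and A, was at 94.4, 86.7 and 88.6 CPM on day 0, 93, 87.9 and 95.6 on day 2, 93.3, 94.6 and 102 on day 3 and 82.7, 83.6 and 88.4 on day 4 in the wild-type. Cdk2 in the knock-out was at 99.6, 101 and 100.5 CPM on day 0, 111, 115 and 114 on day 2, 111, 114 and 109 on day 3 and 106, 106 and 108 on day 4. Here each knock-out library was above each wild-type library at every day, by 0.16, 0.30 ± 0.05 (adjusted p = 2.92e-05), 0.20 and 0.33 ± 0.05 (adjusted p = 2.51e-06). The day 0 call was lost without replicate 2 or 3 of the wild-type at day 0 (adjusted p up to 0.0833).

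Among the G2/M members, Ccna2 and Plk1 had the lowest adjusted p in the wild-type step. Cyclin A2 (Ccna2), needed in S phase and at entry into mitosis, was at 261, 245 and 254 CPM on day 0, 254, 268 and 250.5 on day 2, 310.3, 298 and 308 on day 3 and 211, 211 and 197 on day 4 in the wild-type. Ccna2 in the knock-out was at 269.6, 272 and 283 CPM on day 0, 285, 290.4 and 277 on day 2, 312, 314 and 316 on day 3 and 284, 301 and 269 on day 4. The genotypes were close at day 3 and far apart at day 4, where the wild-type had fallen by 0.56 (adjusted p = 2.56e-10) and the knock-out by 0.14 (adjusted p = 0.0332, lost in 7 fits without 1 library, with an adjusted p up to 0.216). The steps differed by 0.42 ± 0.06 (adjusted p = 1.86e-05). Exosc9 overlaps 12.5% of the exon bases of Ccna2 on the opposite strand.

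Plk1, the Polo kinase of mitosis, was at 151, 149 and 156 CPM on day 0, 179.6, 168 and 172 on day 2, 165, 174 and 179 on day 3 and 121, 137 and 137 on day 4 in the wild-type. Plk1 in the knock-out was at 190.4, 189.8 and 194 CPM on day 0, 210.1, 206 and 205 on day 2, 206, 197 and 197 on day 3 and 194, 186 and 182 on day 4. The knock-out was above the wild-type at every day without overlap, by 0.33 ± 0.05 on day 0 (adjusted p = 1.31e-05), 0.26 on day 2, 0.21 on day 3 and 0.51 ± 0.05 on day 4 (adjusted p = 2.03e-09). In the last step it fell by 0.39 in the wild-type (adjusted p = 2.49e-07) and changed by -0.09 ± 0.05 in the knock-out.

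Mki67, coding for the proliferation antigen Ki-67, was not among the members that fell at day 4. Mki67 in the wild-type was at 380.1, 359.7 and 396 CPM on day 0, 452, 499 and 469 on day 2, 545, 543 and 585 on day 3 and 509.8, 535 and 525 on day 4. Mki67 in the knock-out was at 452, 549 and 559 CPM on day 0, 540.2, 614 and 545 on day 2, 669, 637 and 648 on day 3 and 622, 723 and 613 on day 4. The knock-out was above the wild-type at each day, most at day 0 (0.46 ± 0.07, adjusted p = 4.69e-05), and the calls at days 2 and 3 were lost without replicate 2 of the knock-out at day 2 (adjusted p = 0.0541) and without replicate 1 of either genotype at day 3 (up to 0.051). Its changes from day 3 to day 4 were -0.09 ± 0.07 and 0.00 ± 0.07, neither past the threshold.

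Aurkb, the Aurora kinase of the chromosomal passenger complex, was at 71.9, 73.8 and 79.7 CPM on day 0, 102, 103 and 105 on day 2, 91.5, 97.3 and 100.4 on day 3 and 78.7, 85.6 and 86.2 on day 4 in the wild-type. Aurkb in the knock-out was at 84.1, 87.5 and 91.3 CPM on day 0, 109, 101 and 109.9 on day 2, 107, 104 and 102 on day 3 and 109.7, 103 and 110.4 on day 4. It rose after day 0 in both genotypes, and at day 4 the knock-out was above the wild-type by 0.37 ± 0.05 (adjusted p = 2.16e-06). The mitotic kinase gene Cdk1, the cyclin gene Ccnb1, Aurka, Cdc20 and the topoisomerase gene Top2a also fell in the wild-type step, by 0.20, 0.32, 0.25, 0.32 and 0.26. In the knock-out their changes lay between -0.09 and -0.02, none past the threshold.

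Between genotypes, members were more often higher than lower in the knock-out at each day. At day 0, 10 members were higher and 1 (Cdk4) was lower (21.1% of all genes differed, 10.6% higher and 10.5% lower). Of the higher ones 5 were G2/M genes (Mki67, Plk1, Aurkb, Cdk1 and Aurka), 4 were G1/S genes (Mcm5, Gins4, Orc6 and Rrm1) and 1 was Cdk2. These G1/S genes, apart from Rrm1, lie on chromosome 8, where the median difference over 570 genes was 0.27 at day 0. The median difference was 0.02 over G1/S and 0.13 over G2/M members, beside 0.01 over all genes. Of the 11 calls 5 held without any 1 library, and 6 members were called without replicate 2 of the wild-type at day 0. Fitted on the day 0 libraries alone, 4 were called. The summed feeder markers of these libraries overlapped between genotypes.

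At day 2, 21 members were higher and 1, again Cdk4, was lower (32% of all genes, 16.2% higher and 15.7% lower), with median differences of 0.16 over G1/S and 0.20 over G2/M members, and 12 of the 22 calls held without any 1 library. The 9 higher G2/M members were all of that class but Ccnb2 and Aurkb, and 10 of 25 G1/S members were higher. At day 3, 15 were higher and 4 lower (41.2% of all genes, 20.8% and 20.5%). The lower ones were Ccnd2, Ccne2, Cdk4 and Rrm2, and only 3 G2/M members, Plk1, Bub1 and Mki67, were higher. Of these 19 calls 14 held without any 1 library.

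At day 4, 34 of 41 members were higher and 4, the same Ccnd2, Ccne2, Cdk4 and Rrm2, were lower (54% of all genes, 26.3% higher and 27.6% lower). The higher ones were 21 of 25 G1/S members, 10 of 11 G2/M members, Ccnd1, Ccnd3 and Cdk2. The median difference was 0.32 in both G1/S and G2/M members. Orc1 (-0.22), Cdc45 (0.13) and Ccnb2 (0.02) did not pass the threshold. Of the 38 calls 32 held without any 1 library, and those lost at least once were Cdc6, Cdk1, E2f1, Gins3, Mcm6 and Orc6, with differences of 0.14 to 0.23 (adjusted p up to 0.137, for Mcm6).

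**Figure D5:**
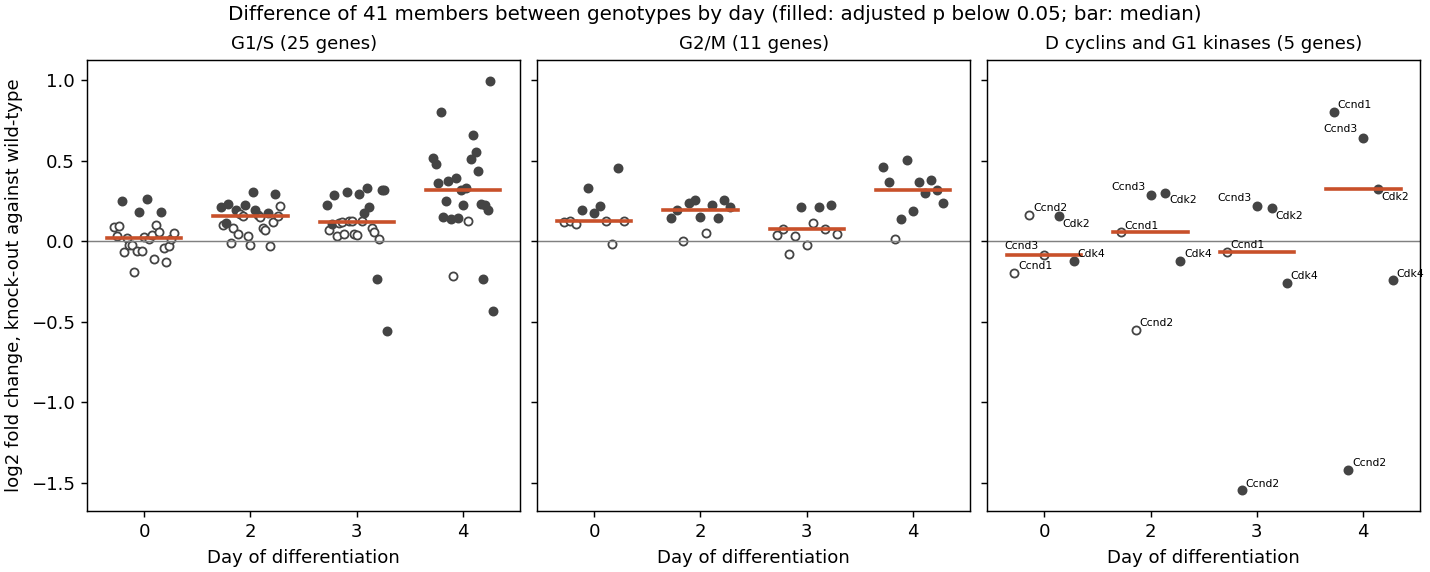
Log2 fold change of each tested member, knock-out against wild-type, by day and class. Filled points have an adjusted p below 0.05 and bars are class medians. The medians of the G1/S and G2/M members were 0.02 and 0.13 at day 0 and 0.32 in both at day 4, and Ccnd2 lay lowest at days 3 and 4.

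Chromosome 8 carries 6 members, Mcm5 (chr8:75109569-75128439), Orc6 (chr8:85299632-85308278), Gins3 (chr8:95633453-95645060), Gins4 (chr8:23226616-23237659) and the unmeasured Cdt1 and Gins2, all on GRCm38. The other genes of that chromosome were higher in the knock-out at each day: over 570 genes that averaged 5 CPM or more the median differences were 0.27, 0.26, 0.23 and 0.25 at days 0, 2, 3 and 4, and over 10147 genes of other chromosomes 0.03, 0.03, 0.00 and 0.02. The 4 tested members had medians of 0.22, 0.23, 0.21 and 0.28, near those of their chromosome. The 37 members elsewhere had medians of 0.04, 0.15, 0.08 and 0.32, so that the difference of day 4 was as large without chromosome 8. The part of chromosome 8 in the member values was not tested otherwise.

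Gins4, of the GINS complex, was at 94.4, 83.9 and 88.2 CPM on day 0, 75.4, 83.9 and 79.7 on day 2, 82, 72.7 and 80.1 on day 3 and 68.1, 66.5 and 68 on day 4 in the wild-type. Gins4 in the knock-out was at 104, 107 and 109 CPM on day 0, 99.2, 94.9 and 101 on day 2, 94, 96.1 and 98 on day 3 and 81.6, 87 and 86.3 on day 4. The knock-out was above the wild-type at each day by a nearly even amount, 0.26 ± 0.05, 0.30 ± 0.05, 0.29 ± 0.05 and 0.33 ± 0.05. Mcm5 had differences of 0.25, 0.23 and 0.29 at days 0, 2 and 3, and 0.80 ± 0.05 at day 4 (adjusted p = 2.12e-12).

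Orc6, the smallest subunit of the origin recognition complex, was at 122, 123 and 119.8 CPM on day 0, 117, 127 and 117 on day 2, 125, 113 and 131 on day 3 and 115, 117 and 113 on day 4 in the wild-type. Orc6 in the knock-out was at 131, 139 and 144 CPM on day 0, 143, 139 and 140.0 on day 2, 129, 135 and 140.1 on day 3 and 124, 132 and 127 on day 4. The genotypes overlapped at day 3 alone, and the differences were 0.18 ± 0.05, 0.23 ± 0.05, 0.13 ± 0.05 and 0.15 ± 0.05. Day 0 was lost without replicate 3 of the knock-out or replicate 1 of the wild-type (adjusted p up to 0.0603), and day 4 without replicate 2 of the knock-out or replicate 3 of the wild-type (up to 0.0808).

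Gins3 was at 24.4, 23.6 and 24.3 CPM on day 0, 35.3, 37.5 and 37.4 on day 2, 35.8, 40.6 and 40.4 on day 3 and 30.3, 29.9 and 32.8 on day 4 in the wild-type. Gins3 in the knock-out was at 23.7, 21.5 and 28.6 CPM on day 0, 36.8, 35.2 and 36.6 on day 2, 39.5, 38.5 and 42.1 on day 3 and 38.2, 35.4 and 35.3 on day 4. It differed from the other chromosome 8 members in that the genotypes overlapped at days 0, 2 and 3, with differences of 0.03, -0.02 and 0.04, none past the threshold. It was higher in the knock-out at day 4 (0.23 ± 0.08, adjusted p = 0.0188, and up to 0.0902 without replicate 1 of the knock-out or replicate 1 or 2 of the wild-type).

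The earlier steps split the members. From day 0 to day 2, when the cells left LIF and the feeders, 13 members rose and 15 fell in the wild-type (63.8% of all genes, 32% and 31.8%), and 17 rose and 8 fell in the knock-out (60.1%, 29.5% and 30.6%). With DESeq2's size factors these splits were 10 and 18 in the wild-type and 14 and 13 in the knock-out. Gins3, Pold1, Bub1 and Cdk4 rose in both genotypes (0.61, 0.56, 0.56 and 0.33 in the wild-type), and the D cyclins and Orc1 fell in both. The step differed between genotypes for 3 members (7.34% of all genes, 4.27% higher and 3.07% lower), Tyms, E2f1 and Ccnd3, all higher in the knock-out, and none of these calls held in all fits without 1 library. It was 1 member without replicate 2 of the knock-out at day 0, replicate 2 or 3 of the knock-out at day 2, or replicate 3 of the wild-type at day 0.

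From day 2 to day 3, the first day in Activin A, 8 members rose and 9 fell in the wild-type (42.4% of all genes, 21.4% and 21.1%), and 3 rose and 6 fell in the knock-out (29.1%, 14.7% and 14.4%). With DESeq2's size factors the wild-type split was 5 and 10. Beside Ccne2 and Ccnd2, the wild-type members with the largest changes were Pole (-0.35) and Ccne1 (-0.31), which fell. Few of these calls were firm. In the wild-type 6 of 17 held without any 1 library, with 11 members called without any of replicates 1, 2 and 3 of day 2 and 10 without replicate 1 of day 3. In the knock-out 4 of 9 held, with 5 called without replicate 1 of day 2, 4 without replicate 3 of day 2, and 5 without replicate 1 or replicate 3 of day 3.

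The G1/S and G2/M classes were compared within each library, as the mean log2 CPM of the G1/S members minus that of the G2/M members. This index was -0.77 ± 0.04, -0.88 ± 0.02, -0.91 ± 0.04 and -0.99 ± 0.01 (SD, n = 3) in the wild-type at days 0, 2, 3 and 4, highest at day 0 and lowest at day 4, with the libraries of days 2 and 3 overlapping. The wild-type mean changed by -0.029 from day 2 to day 3, and by -0.0083 without replicate 1 of day 3. In the knock-out it was -0.92 ± 0.01, -0.91 ± 0.02, -0.88 ± 0.01 and -0.99 ± 0.01. The genotypes differed by -0.15 at day 0, where the libraries did not overlap, and by -0.03, 0.03 and 0.00 at days 2, 3 and 4. Without 1 library the day 2 difference ranged from -0.044 to -0.019 and that of day 3 from 0.0061, without replicate 1 of the wild-type, to 0.038. At day 4 both classes were thus higher in the knock-out by about the same amount. At day 0 the libraries of the genotypes overlapped in the G1/S mean (7.04 to 7.12 in the wild-type and 7.04 to 7.16 in the knock-out) and were apart in the G2/M mean (7.80 to 7.90 and 7.96 to 8.09). Taken as the median over members in place of the mean, the index differed by 0.15 at day 4. Since the members were chosen with these data known, the index was given no test.

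Other genes of these pathways, were counted from lists that hold no member. Of 41 further replication genes 32 fell in the wild-type from day 3 to day 4 (23.1% of all genes fell), led by the dUTPase gene Dut (-0.71 ± 0.04), the DNA ligase gene Lig1 (-0.67 ± 0.05) and the single-strand binding genes Rpa1 (-0.59 ± 0.05) and Rpa2 (-0.57 ± 0.05). In the knock-out 3 fell in that step, where 5.83% of all genes fell. Between genotypes 7 were higher and 5 lower in the knock-out on day 0 (10.6% and 10.5% of all genes). The counts were 10 and 3 on day 2 (16.2% and 15.7%) and 11 and 8 on day 3 (20.8% and 20.5%). On day 4, when 26.3% of all genes were higher and 27.6% lower, 27 were higher and 3 lower, Dut by 0.56 ± 0.04, Lig1 by 0.70 ± 0.05 and the kinase subunit gene Dbf4 by 0.57 ± 0.05. The clamp loader gene Rfc2 was lower in the knock-out at day 0 (-0.33), day 2 (-0.45) and day 3 (-0.46). Its value at day 4, -0.52 ± 0.05, is named because it was the lowest of that list, after it was seen.

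Of 30 further mitosis genes 22 fell and 1 rose in the wild-type step (23.1% and 22.4% of all genes). Among those that fell were Kif20a (-0.42 ± 0.05), a kinesin of cytokinesis, and Mad2l1 (-0.35 ± 0.04), of the spindle checkpoint. In the knock-out step 2 fell (6.67% of the list, near the 5.83% of all genes). Of the 30, 14 were higher in the knock-out on day 0, 24 on day 2, 13 on day 3 and 24 on day 4. Lower in the knock-out were 2 on day 3 and 2 on day 4. Of all genes 10.6%, 16.2%, 20.8% and 26.3% were higher on days 0, 2, 3 and 4, and 20.5% and 27.6% were lower on days 3 and 4. Bub1b, another checkpoint gene, was higher by 0.66 ± 0.05 at day 4.

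Of the 29 genes of the E2F and RB network and of the cell cycle inhibitors, 15 fell and 5 rose in the wild-type step (23.1% and 22.4% of all genes), and 7 fell and 1 rose in that of the knock-out (5.83% and 5.76%). At day 4, 17 of the 29 differed between genotypes (58.6%, near the 54% of all genes). Of these, 16 were higher and 1, E2f5, was lower in the knock-out (-1.0 ± 0.06, adjusted p = 3.27e-12), and the proto-oncogene Mycn was higher (1.21 ± 0.07, adjusted p = 1.65e-12). Mybl2, the MuvB partner that activates G2/M genes, was higher at day 0 (0.27 ± 0.08), day 2 (1.27 ± 0.08) and day 3 (0.88 ± 0.08). Its change from day 3 to day 4 did not differ between genotypes past the threshold (-0.18 ± 0.12). Of the inhibitors, Cdkn1b (p27) was higher in the knock-out at each day (0.43, 0.21, 0.39 and 0.41). Cdkn1c (p57) was higher at day 2 (1.05 ± 0.20) and day 3 (1.35 ± 0.18), and Cdkn1a (p21) was lower at day 3 (-0.86 ± 0.19, adjusted p = 0.00125). Their changes from day 3 to day 4 differed between genotypes in the direction opposite to these day 3 differences. The knock-out change minus the wild-type change was -1.15 ± 0.25 for Cdkn1c (adjusted p = 0.00159) and 0.97 ± 0.26 for Cdkn1a (adjusted p = 0.0123).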

How the data were processed

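Polyadenylated RNA of 24 libraries was sequenced, 3 for each genotype and day, with groups and replicate numbers taken from the labels. The authors deposited 1 table of raw counts, whole numbers for each gene in each library. Per the submitters' processing notes, Trimmomatic, HISAT2 and the build GRCm38.p6 were used; no source used here gives their versions, the counting tool or the use of strand. Reads of overlapping genes on opposite strands may therefore be mixed.

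Members were matched by gene symbol, and positions came from a GRCm38 annotation. The members, the gene lists and the tests were chosen with earlier results of these data known. Counts were scaled by TMM and tested with edgeR 4.0.16 (limma 3.58.1, R 4.3.3), quasi-likelihood with robust fits, in 1 model of 8 group means after filterByExpr. This left 17144 genes, with a common biological coefficient of variation of 0.0906, and p-values were adjusted over all of them. Class means used log2 CPM with a prior count of 2. The test was tried on counts simulated as independent libraries, for the day 4 genotype comparison only. Such counts cannot show whether the real libraries of a group came from separate cultures.

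Values in every library were given for the 2 members per role with the lowest adjusted p in the wild-type step from day 3 to day 4, the 5 with the lowest adjusted p between genotypes at each day, all members on chromosome 8, the D cyclins and cyclins E1 and E2. Of the other lists, up to 4 genes per comparison with the lowest adjusted p, and Cdkn1a, Cdkn1b and Cdkn1c, could be named. Values of Orc1 in every library, some further days of genes in the other lists, and the choice of sequences printed, were added after the values were seen.

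Alternatives were DESeq2's size factors, DESeq2's Wald test (1.42.0), fits with the compared groups only, a block for the replicate number, genes of low counts kept in, each library left out in turn, TMM factors without chromosome 8 and chromosome 12 from 90 Mb, and members outside chromosome 8. For the class index they were a prior count of 0.5 and the median over members.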

Additional observations from a re-analysis of the deposited data

Results flagged for a closer look

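The change from one day to the next differed between genotypes, by edgeR's quasi-likelihood test of the difference itself with Benjamini-Hochberg adjustment over 17144 genes, for 26 member values. Values are the knock-out change minus the wild-type change on the log2 scale.

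From day 3 to day 4, when 12.6% of all genes had the higher change in the knock-out, 21 of 41 members did. The licensing and helicase genes among them were Mcm2 (0.29), Mcm3 (0.41), Mcm4 (0.26), Mcm5 (0.52), Mcm10 (0.26), Orc2 (0.27) and Gins1 (0.27). Those of DNA synthesis were Pcna (0.34), Pola1 (0.33), Pole (0.34), Pold1 (0.36) and Tyms (0.22). The cyclins were Ccne1 (0.68), Ccna2 (0.42), Ccnb1 (0.29), Ccnd1 (0.87) and Ccnd3 (0.42), and the mitotic regulators were Plk1 (0.30), Aurka (0.21), Aurkb (0.25) and Cdc20 (0.30). Orc1 alone of the members had the lower change in the knock-out (-0.53), where 11.2% of all genes did. Nif3l1 overlaps 29.8% of the exon bases of Orc2 on the opposite strand.

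From day 2 to day 3 the change differed for 1 of 41 members, Ccne2 (-0.78), where 10.9% of all genes differed. From day 0 to day 2, the step in which the summed feeder markers dropped, they were Tyms (0.25), E2f1 (0.32) and Ccnd3 (0.37). These 3 of 41 members are near the 7.34% of all genes that differed, and none of the 3 calls held in all fits without 1 library.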

How the results depend on the processing

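Of 236 member changes past the threshold none changed sign under any alternative. The number that no longer passed was 10 with DESeq2's size factors, 28 without the filter, 24 with only the groups compared, 6 with DESeq2's Wald test, 3 with TMM factors free of chromosome 8 and distal chromosome 12, and 316 of 5664 over all fits without 1 library.

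Counts of members called moved by more than 1.5 times with only the groups compared for the day 0 genotype comparison (4 in place of 11), the knock-out step from day 2 to day 3 (18 in place of 9), and the genotype difference in the step from day 0 to day 2 (1 in place of 3), which was also 1 without the filter. Such fits rest on fewer libraries or test more genes, and the cause was not tested further.

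Without 1 library, the counts ranged from 6 to 15 at day 0, 16 to 23 at day 2, 16 to 20 at day 3 and 34 to 39 at day 4 between genotypes. In the wild-type steps they ranged from 23 to 29, 10 to 18 and 31 to 33, in the knock-out steps from 21 to 27, 4 to 11 and 5 to 10, and in the differences between steps from 1 to 3, 1 to 2 and 15 to 23. The 2 in the step from day 2 to day 3 came without replicate 2 of the wild-type at day 2 or replicate 3 of the wild-type at day 3.

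The G1/S minus G2/M index differed between genotypes at day 0 by -0.18 without chromosome 8 members and by -0.10 as a median over members, and at day 4 by -0.011 and 0.15. As a median, the day 3 difference was -0.051 where the mean gave 0.03, the wild-type change from day 0 to day 2 was -0.16, and that from day 3 to day 4 was -0.28. The cause was not tested.

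Libraries with the same replicate number had correlated deviations of -0.37 to 0.46, not all above 0.1, and the labels give no shared source for a number, so the numbers were not taken as pairs. As a hint from the data, not the design, 15 of 24 libraries correlated best with their own number. With a replicate block, 11, 23, 19 and 38 members were called between genotypes at days 0, 2, 3 and 4, and 3 of the 236 changes were lost. At these levels the day 4 difference of Orc1 between genotypes, -0.22 with an error of 0.12, was not detectable.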

Other observations

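Genes of the wider cell cycle lists also moved in the early steps of the wild-type. The proto-oncogene Myc changed by -2.29 ± 0.12 from day 0 to day 2, a step in which feeder RNA fell too, and by 2.54 ± 0.12 from day 2 to day 3. From day 0 to day 2 the polymerase alpha subunit gene Pola2 (0.77 ± 0.06), Clspn (0.56 ± 0.05), which codes for the checkpoint mediator Claspin, and the securin gene Pttg1 (0.75 ± 0.07) rose, while Hmmr (-0.82 ± 0.06) fell. From day 2 to day 3 the clamp loader gene Rfc5 fell (-0.59 ± 0.05) and the polymerase epsilon subunit gene Pole3 rose (0.45 ± 0.06).

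Between genotypes, the phosphatase gene Cdc25b was higher in the knock-out at day 0 (0.63 ± 0.11) and day 3 (0.59 ± 0.11). At day 4 its difference (0.83) was the highest of the mitosis list. Clspn was higher at day 0 (0.41 ± 0.05), day 2 (0.21 ± 0.05) and day 3 (0.24 ± 0.05). The inhibitor gene Cdkn2c (p18) was higher at day 2 (1.62 ± 0.25), at low means of 2.62 CPM in the knock-out and 0.85 CPM in the wild-type. Pola2 was higher at day 3 (0.33 ± 0.06) and day 4 (0.69 ± 0.06). The change of Cdk6, a partner of the D cyclins, from day 3 to day 4 was higher in the knock-out by 1.11 ± 0.24. The day 4 value of Cdc25b is given without its adjusted p. The other values passed the threshold in edgeR's quasi-likelihood test over all genes. All were described after earlier results of these data were known, and a gene can differ on days not named here.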
